A study of Homo sapiens with 6 samples.

Results

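The genes described here encode 10 transcription factors that act when retinal precursors become photoreceptors: CRX, OTX2, NRL, NR2E3, THRB, RXRG, RORB, PRDM1, ONECUT1 and SALL3. They were taken by symbol from the table of gene counts, which held all 10 among its 17013 genes. RNA was measured in Y79, an established line grown from a human retinoblastoma, a childhood tumour of the retina, which carries extra copies of the MYCN gene. The first group of 3 libraries came from cells given a control shRNA (genotype label MYCN wild-type), and the other group of 3 from cells given an MYCN-targeting shRNA (genotype label MYCN knockdown). The series text calls the libraries of each group biological replicates, and a single batch label covers all 6. The number of hairpins, their sequences and the time from transduction to harvest were not given in the sources used here. The data describe 1 cell line, and p-values reflect the scatter among these libraries only.

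Photoreceptor fate is set by a small network of DNA-binding proteins. OTX2, a homeodomain protein, commits precursors to the photoreceptor path and turns on its relative CRX, which drives most genes of the light response in both rods and cones, while PRDM1 holds new photoreceptors away from the bipolar cell fate. Among the cone factors, ONECUT1 acts in early precursors of cones and horizontal cells, THRB and RXRG are nuclear receptors that pattern cone opsins in response to thyroid hormone and retinoids, and SALL3 takes part in cone and horizontal cell differentiation. On the rod side RORB acts upstream of NRL, a leucine zipper protein that directs precursors into rods, and NRL switches on NR2E3, a nuclear receptor that represses cone genes. Retinoblastoma is known for cell features of cone precursors, and MYCN is a growth-promoting transcription factor of the MYC family.

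The libraries held 15490263 to 16078416 estimated counts each. MYCN itself ranged from 2876 to 3128 CPM (counts scaled to a common library total) under the control shRNA and from 2195 to 2413 CPM under the MYCN shRNA, so its transcript stayed abundant (log2 fold change -0.39 ± 0.043, SE; edgeR quasi-likelihood test, adjusted p = 8.03e-11). Scaling between libraries used the TMM method. Photoreceptor identity genes were present: RBP3, which encodes a retinoid carrier of the matrix around photoreceptors, stood at 169 ± 11 CPM (SD, n = 3) in the controls, and AIPL1, a chaperone for the phosphodiesterase of rods and cones, at 761 ± 3.6 CPM. The cone genes PDE6H (51.8 ± 2.1 CPM) and GNAT2 (23.8 ± 0.82 CPM) were readily measured. In bulk RNA a smaller share of expressing cells and less RNA per cell cannot be told apart.

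To give sequence context, the 250 bases before each RefSeq gene start of the factors (GRCh38.p14, 15 windows for 10 genes) were searched on both strands for 4 motifs that do not overlap each other in these windows. The first was TAATCC, the core bound by CRX and OTX2, and the second CACGTG, the E-box bound by MYC proteins with MAX. The others were AGGTCA, part of the element of many nuclear receptors, and TGCTGA, part of the element of MAF proteins such as NRL. Of 35116 RefSeq windows of the same length, 5.62% held TAATCC, 6.35% CACGTG, 12.1% AGGTCA and 14.0% TGCTGA. The 4 stretches that hold any of the first 3 motifs are shown, with the motif in capitals as it reads on the gene's strand.
CRX (chr19:47821743-47821887, plus strand): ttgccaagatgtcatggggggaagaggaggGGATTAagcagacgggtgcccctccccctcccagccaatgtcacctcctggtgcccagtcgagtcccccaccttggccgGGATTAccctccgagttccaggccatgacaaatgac
RXRG (chr1:165445322-165445376, minus strand): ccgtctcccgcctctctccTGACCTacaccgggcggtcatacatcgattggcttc
ONECUT1 (chr15:52790510-52790575, minus strand): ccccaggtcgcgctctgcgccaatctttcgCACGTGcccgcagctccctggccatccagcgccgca
NRL (chr14:24114988-24115053, minus strand): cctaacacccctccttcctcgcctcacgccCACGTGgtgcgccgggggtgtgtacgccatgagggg
The CRX stretch holds the OTX and CRX core at 2 places, both in reverse orientation, at 164 to 159 and 85 to 80 bases before the start. Upstream of RXRG the motif AGGTCA lies in reverse orientation, and an E-box lies before ONECUT1 and before the outer of 2 NRL starts. TGCTGA, the most frequent of the 4 in all windows, occurred before 1 of 2 starts of PRDM1 and of RORB, which are not printed. The windows of OTX2, THRB, SALL3 and NR2E3 held none of these 4 letter strings. A match describes letters in a window, and binding was not measured.

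Of the 10 factors, 7 were higher with the MYCN shRNA (CRX, PRDM1, THRB, RXRG, ONECUT1, NRL and NR2E3), 2 were lower (OTX2 and RORB), and SALL3 did not pass the test. Across the 12819 genes tested, 38.0% were called higher and 37.9% lower (edgeR quasi-likelihood test, adjusted p under 0.05), so most genes were called in some direction. With library sizes as the only scaling these totals became 6597 higher and 3348 lower and the overall median was 0.19 on the log2 scale in place of 0.0046, while the calls of the 10 factors stayed at 7 and 2. No overlap between the groups was seen for 9 of the 10 factors and for 76.8% of all tested genes. The median log2 fold change was 1.18 over the 10 factors and 0.0046 over all tested genes. All 10 entered the test, although ONECUT1 reached the count minimum only in the MYCN shRNA libraries.

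**Figure D1:**
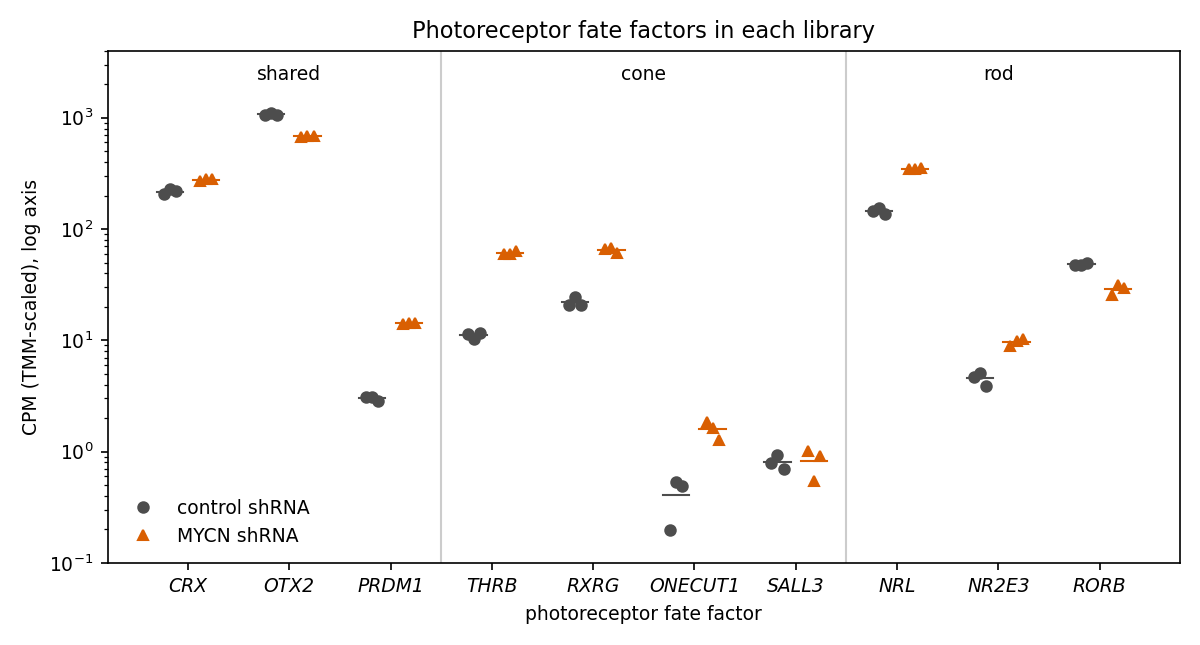
CPM of each factor in each library on a log axis, with circles for the 3 control shRNA libraries, triangles for the 3 MYCN shRNA libraries and a line at each mean; factors are ordered by role. The groups are apart for every factor except SALL3, and OTX2 and RORB are the 2 factors whose MYCN shRNA libraries lie below the controls.

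The shared factors moved in different directions. OTX2, which starts the programme (chromosome 14, 56799905 to 56810479, minus strand, GRCh38 and GENCODE 29 as for all positions here), was at 1058, 1107 and 1068 CPM in control replicates 1, 2 and 3. In MYCN shRNA replicates 1, 2 and 3 it was at 669, 684 and 686 CPM. All 3 MYCN shRNA libraries were below all controls, and OTX2 fell by 0.67 ± 0.039 on the log2 scale (adjusted p = 2.96e-19), from 1078 ± 26.0 to 680 ± 9.4 CPM (SD, n = 3). CRX, the main activator of photoreceptor genes (chromosome 19, 47819779 to 47843330, plus strand), was at 205, 227 and 219 CPM under the control shRNA and at 271, 284 and 279 CPM under the MYCN shRNA. Its groups were also apart, but the change was the smallest among the 9 called factors, 0.36 ± 0.040 on the log2 scale (adjusted p = 1.33e-10), a 1.28-fold rise. CRX counts were not whole numbers in any of the 6 libraries, although no other GENCODE 29 gene shares its exons. PRDM1, which blocks the bipolar fate (chromosome 6, 106086320 to 106109939, plus strand), rose from 3.09, 3.07 and 2.84 CPM to 14.0, 14.4 and 14.2 CPM. This was a 4.72-fold rise (log2 fold change 2.24 ± 0.123, adjusted p = 4.49e-20), and PRDM1 had the 256th highest log2 fold change of the 12819 genes tested.

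Among the cone factors, both nuclear receptors rose. THRB, the thyroid hormone receptor beta gene (chromosome 3, 24117153 to 24495756, minus strand), had the largest log2 fold change of the 10, at 2.45 ± 0.069 (adjusted p = 4.64e-30). Its levels were 11.5, 10.2 and 11.5 CPM under the control shRNA and 59.2, 59.7 and 63.0 CPM under the MYCN shRNA, a 5.48-fold rise. The counts are per gene, so the isoform of THRB that is specific to cones cannot be told apart from the others, and 42 exon bases (0.383% of its exon length) are shared with the antisense gene THRB-AS1. RXRG, the retinoid X receptor gene of cones (chromosome 1, 165400917 to 165445355, minus strand), rose 2.94-fold, from 20.5, 24.4 and 20.9 CPM to 66.0, 66.9 and 61.0 CPM (log2 fold change 1.56 ± 0.064, adjusted p = 1.57e-24). In both genes every MYCN shRNA library lay above every control.

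The other cone factors were near the detection limit. ONECUT1 (chromosome 15, 52756989 to 52791078, minus strand) had 3, 8 and 7 counts under the control shRNA and 31, 27 and 21 under the MYCN shRNA, a CPM ratio of 3.94 with an exact 95% counting interval of 2.34 to 6.98. It was called higher (log2 fold change 1.96 ± 0.344, adjusted p = 2.71e-06) but stayed at 1.58 ± 0.28 CPM, so its size is uncertain. SALL3 (chromosome 18, 78980275 to 79002677, plus strand) had 12, 14 and 10 counts against 17, 9 and 15, with overlapping groups. Its log2 fold change of 0.03 ± 0.336 did not pass (adjusted p = 0.940), and the ratio of 1.02 had a counting interval of 0.637 to 1.64, so neither a moderate rise nor a moderate fall was detectable at this depth.

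The rod factors split. NRL, which directs precursors to the rod fate (chromosome 14, 24080107 to 24115014, minus strand), was at 144, 155 and 136 CPM under the control shRNA and at 346, 343 and 356 CPM under the MYCN shRNA, a 2.40-fold rise (log2 fold change 1.26 ± 0.042, adjusted p = 1.50e-27). The groups were far apart relative to their spread of 9.8 and 6.8 CPM. NRL shares 293 exon bases, 9.41% of its exon length, with DCAF11 on the opposite strand, and DCAF11 fell by 0.34 ± 0.052 (67.6 ± 1.8 to 53.5 ± 2.3 CPM). The strand setting of the counting is not given, so reads in that overlap cannot be told apart. NR2E3, which acts downstream of NRL (chromosome 15, 71792638 to 71818259, plus strand), rose 2.13-fold from a low level, from 4.66, 5.07 and 3.88 CPM to 8.87, 9.89 and 10.3 CPM (log2 fold change 1.09 ± 0.128, adjusted p = 4.31e-10). Both groups of NR2E3 libraries were apart. RORB, the nuclear receptor gene upstream of NRL (chromosome 9, 74497365 to 74693177, plus strand), went the other way, with 47.2, 47.4 and 49.8 CPM under the control shRNA and 25.7, 31.3 and 29.5 CPM under the MYCN shRNA. RORB fell by 0.74 ± 0.063 (adjusted p = 5.89e-14), and the MYCN shRNA libraries were the more scattered, with a coefficient of variation of 9.90% against 2.97% in the controls.

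**Figure D2:**
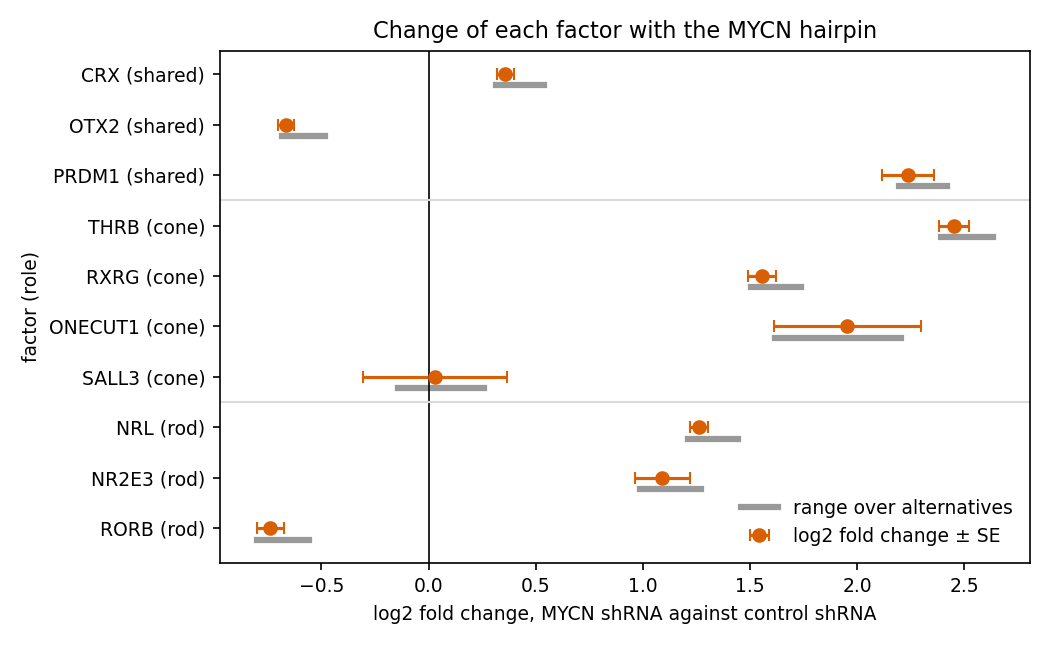
Log2 fold change of each factor with its standard error (points and whiskers), beside the range over the alternative settings (grey bars). THRB (2.45), PRDM1 (2.24), ONECUT1 (1.96) and RXRG (1.56) lie farthest to the right, OTX2 (-0.67) and RORB (-0.74) lie below 0 in every setting, and SALL3 straddles 0.

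Grouped by role, the median log2 fold change was 0.36 for the 3 shared factors (2 higher, 1 lower), 1.76 for the 4 cone factors (3 higher, 1 not called) and 1.09 for the 3 rod factors (2 higher, 1 lower). The ranges overlapped, from -0.67 to 2.24, from 0.03 to 2.45 and from -0.74 to 1.26. These medians rest on 3 or 4 genes each, were given no test and depend on the placing of RORB, which acts in early photoreceptors as well as in rods: with RORB among the shared factors their median was -0.15. The cone median is the midpoint of RXRG and ONECUT1, and ONECUT1, 1 of the 3 cone factors called higher, entered the test only through the MYCN shRNA libraries.

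Ratios of counts within a library do not depend on scaling between libraries. The log2 ratio of THRB to NRL was -3.65, -3.93 and -3.56 in the controls and -2.55, -2.53 and -2.50 with the MYCN shRNA, so the cone receptor gained 2.28-fold on the rod factor without overlap of the groups. For the nuclear receptors RXRG (cone) and NR2E3 (rod) the ratio moved less, from 2.14, 2.27 and 2.43 to 2.90, 2.76 and 2.56, a 1.38-fold gain. The groups did not overlap there either, but the gap between the nearest libraries (2.43 and 2.56) was no larger than the SDs of 0.15 and 0.17. The NRL to NR2E3 ratio overlapped between groups (5.01 ± 0.11 and 5.17 ± 0.099, SD, n = 3). CRX gained 2.03-fold on OTX2, with log2 ratios of -2.36, -2.29 and -2.29 against -1.30, -1.27 and -1.30. These are values of single pairs in 3 libraries a group and were given no test.

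**Figure D3:**
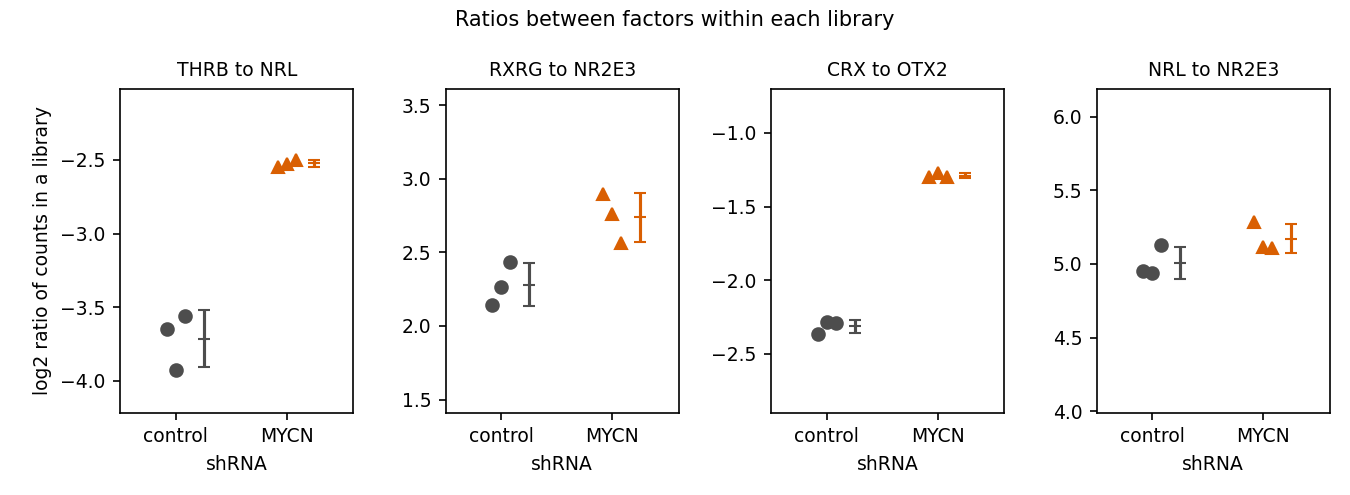
Log2 ratio of the counts of 2 factors in each library, with circles for control shRNA, triangles for MYCN shRNA, and the mean with its SD (n = 3) beside them; all panels span the same height. THRB to NRL and CRX to OTX2 shift by 1.19 and 1.02 on the log2 scale, RXRG to NR2E3 by 0.46, and the NRL to NR2E3 libraries overlap.

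Divided by exon length (all GENCODE 29 exons of a gene joined), levels spanned a wide range. In the controls OTX2 was highest at 329 ± 8.0 CPM per kb (SD, n = 3), followed by NRL (46.6 ± 3.1), CRX (36.2 ± 1.8), RXRG (8.15 ± 0.79), RORB (5.02 ± 0.15), NR2E3 (1.40 ± 0.19), THRB (1.01 ± 0.068) and PRDM1 (0.469 ± 0.021). SALL3 (0.109 ± 0.016) and ONECUT1 (0.105 ± 0.047) were lowest and overlapped each other, while every other pair of neighbours in this order was apart in all libraries. With the MYCN shRNA the order began in the same way, with OTX2 at 208 ± 2.9, NRL at 112 ± 2.2, CRX at 46.4 ± 1.0 and RXRG at 24.0 ± 1.2 CPM per kb. THRB (5.53 ± 0.19) then stood above RORB (3.01 ± 0.30) and NR2E3 (2.99 ± 0.23), which overlapped, and above PRDM1 (2.22 ± 0.029). The exon length of THRB is 10.968 kb against 2.696 kb for RXRG, and the transcripts in use in Y79 are not known from these counts, so the order of genes with near levels depends on that choice of length.

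Near relatives of the factors moved in both directions, as tested genes did in general. Of 28 paralogues, 23 were tested, of which 9 were higher and 7 lower, with a median log2 fold change of 0.05. Over all tested genes 38.0% were higher and 37.9% lower, which is the background for this and the following lists. THRA, the other thyroid hormone receptor gene, measured 12.8 ± 1.9 and 12.6 ± 0.87 CPM and did not pass (log2 fold change -0.02 ± 0.10, adjusted p = 0.844, with a sign that differed between scalings). RXRA and RXRB rose by 0.24 and 0.28 and RORA, the relative of RORB, by 0.37. ONECUT2 was far more abundant than ONECUT1, at 144 ± 9.1 and 155 ± 3.2 CPM, and its call at 0.10 was lost by DESeq2 and without any of control replicates 1 and 2 and MYCN shRNA replicates 1 and 3 (0.06 to 0.10), whereas ONECUT3 was called lower (1.30 ± 0.14 and 0.261 ± 0.092 CPM) but reached the count minimum in the control libraries alone. OTX1, at 1.83 ± 0.32 and 1.08 ± 0.29 CPM, was called lower (-0.75 ± 0.260, adjusted p = 0.00874) but not without MYCN shRNA replicate 3 (adjusted p = 0.0652) or by DESeq2 (adjusted p = 0.0553). SALL1 and SALL4 both rose by 0.58, and the small MAF gene MAFK (-1.03) and the orphan receptor gene NR2F2 (-0.87) fell.

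Of 34 regulators that act before or beside the factors, 26 were tested, with 7 higher and 14 lower and a median log2 fold change of -0.29. NEUROD4, a proneural bHLH factor of the retina, rose from 17.5 ± 2.8 to 97.8 ± 1.9 CPM (log2 fold change 2.49 ± 0.066, adjusted p = 2.92e-30), close in size to THRB. LHX2, a homeobox gene of the eye field, rose from 11.7 ± 1.5 to 23.7 ± 2.6 CPM. NEUROD1, which supports photoreceptor differentiation, fell from 438 ± 21.8 to 261 ± 5.9 CPM, and SAMD11, a photoreceptor corepressor, from 54.8 ± 2.0 to 27.9 ± 0.21 CPM. RAX2, which works with CRX at photoreceptor promoters, fell by 0.73. SOX2 was at 0 in every library. Some genes, such as ESRRB, belong to several of these lists.

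In the list of thyroid hormone and retinoid handling genes, the partners of THRB and RXRG, 13 of 24 tested were higher and 7 lower, with a median of 0.19. The coactivator gene NCOA1 rose from 47.7 ± 1.2 to 89.5 ± 2.6 CPM and HR, a corepressor of the thyroid hormone receptor, from 146 ± 5.6 to 273 ± 4.1 CPM. CRABP2, a retinoic acid binding protein, fell from 491 ± 16.4 to 194 ± 6.3 CPM, and KLF9 from 75.2 ± 1.5 to 50.4 ± 3.3 CPM. DIO2, the deiodinase that makes active hormone, was called lower (0.981 ± 0.26 and 0.442 ± 0.088 CPM) but reached the count minimum in the control libraries alone, as CRYM, called higher in this list, did in the MYCN shRNA libraries alone.

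Of 20 genes of mature cones, 12 were tested and all 12 were higher (median 1.54), while DESeq2 called 11, and the other 8 were too low to be tested. PDE6C, which encodes the catalytic part of the phosphodiesterase in cones, went up from 1.21 ± 0.15 to 18.4 ± 1.0 CPM and PDE6H, its inhibitory subunit, to 192 ± 2.4 CPM, whereas GNB3 rose by 0.17 only and was not called by DESeq2 (adjusted p = 0.0614). Of the 12 cone genes, 1 reached the count minimum in the MYCN shRNA libraries alone. Of 14 tested rod genes 4 were higher and 6 lower (median -0.42). NXNL1, which encodes a rod-derived survival factor, rose from 4.58 ± 0.49 to 18.8 ± 0.28 CPM and PDE6B from 85.2 ± 5.0 to 129 ± 2.6 CPM, while PDE6A fell from 93.5 ± 6.4 to 38.6 ± 1.5 CPM and GNB1 from 366 ± 12.8 to 200 ± 6.0 CPM. Both phosphodiesterase genes encode catalytic subunits of the same rod enzyme and moved in opposite directions.

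Genes used by all photoreceptors were higher in 17 and lower in 4 of 24 tested cases (median 0.60), with 1 lower when library sizes were the only scaling, and 2 of the tested genes reached the count minimum in the MYCN shRNA libraries alone. GUCA1A, an activator of guanylate cyclase, rose from 2.40 ± 0.93 to 29.9 ± 2.3 CPM and GUCA1B, another activator, from 2.11 ± 0.35 to 13.2 ± 1.1 CPM. TULP1, a carrier of photoreceptor proteins, fell from 202 ± 4.6 to 111 ± 4.6 CPM. IMPG2, a proteoglycan of the matrix between photoreceptors, was called lower at -0.23 ± 0.039, but not with library sizes alone (-0.04). These lists were not compared with each other by a test.

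**Figure D4:**
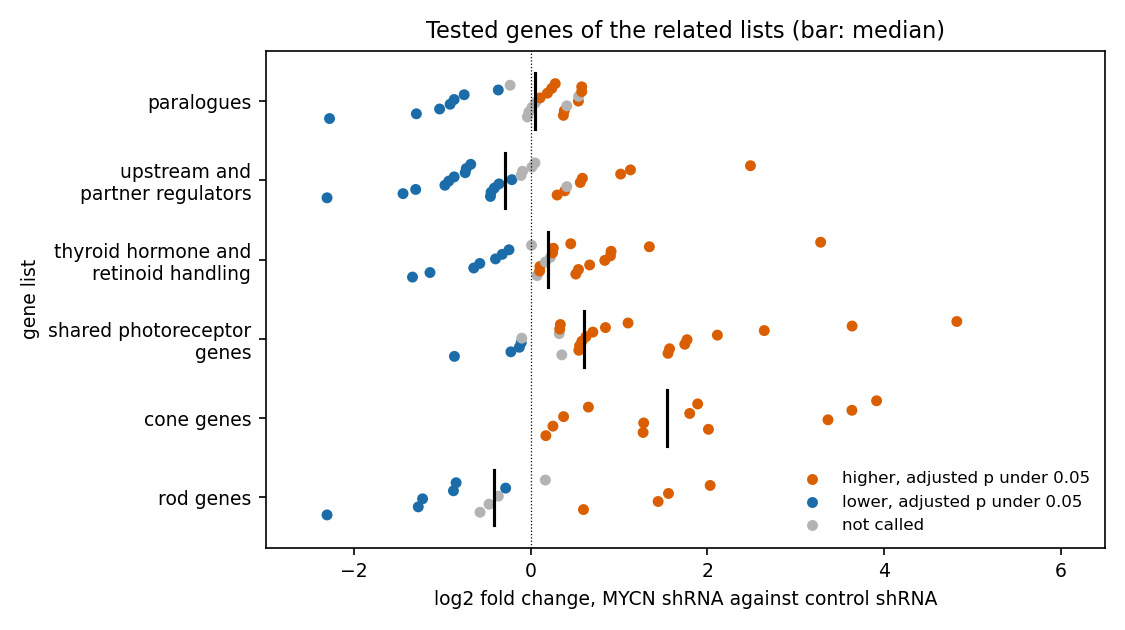
Log2 fold change of each tested gene in the 6 lists related to the factors, coloured by call, with a bar at the list's median. Cone genes lie to the right of 0 (median 1.54), rod genes are on both sides (median -0.42), and paralogues centre near 0 (median 0.05).

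Several of the factors are also made by other retinal cells, OTX2 by bipolar and pigment epithelial cells and ONECUT1 by horizontal cells, so markers of those cells are given beside them. The 17 bipolar markers in the table summed to 124 to 138 CPM in the controls and 143 to 151 CPM with the MYCN shRNA, with 4 higher and 2 lower of 6 tested (8 higher with no filter on low counts, 1 lower with library sizes alone), and NYX, ISL1 and NETO1 at 0 in every library. CABP5 (0.71) and PRKCA (0.42) rose while BHLHE23 (-1.52) and GRM6 (-0.26, and -0.07 and not called with library sizes alone) fell. The 9 horizontal cell markers summed to 721 to 766 and 628 to 647 CPM, with 2 higher and 4 lower of 8 tested, of which 1 of the lower (ONECUT3) passed through the controls alone. The 2 higher became 1 by DESeq2 and without any of the 4 libraries named for ONECUT2, and the called genes included SEPTIN4 (1.28), the more widely expressed TPM3 (-0.49) and ESRRB (-2.31). TPM3 was the largest part of the horizontal cell sums, at 534 ± 17.4 and 381 ± 11.2 CPM. The 11 pigment epithelium markers summed to 788 to 802 and 485 to 500 CPM, with 2 higher and 1 lower of 6 tested (4 higher with library sizes alone) and TYRP1 at 0. Of the 2 called higher, RPE65, the retinoid isomerase, reached the count minimum in the MYCN shRNA libraries alone (0.244 ± 0.15 and 4.72 ± 0.21 CPM). BEST1 stood at 2.46 ± 0.088 and 5.87 ± 0.63 CPM, and SERPINF1 fell from 450 ± 19.1 to 149 ± 3.6 CPM. SERPINF1 and DCT (340 ± 13.2 and 332 ± 9.9 CPM, not called) made up most of the pigment epithelium sums. The drop of these sums therefore mostly reflects SERPINF1.

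The 16 Müller glia markers in the table summed to 1213 to 1253 CPM in the controls and 1264 to 1291 CPM with the MYCN shRNA, with 6 higher and 2 lower of 10 tested. Of the 6, DKK3 and CRYM reached the count minimum in the MYCN shRNA libraries alone. VIM (0.68) and CLU (0.98) rose and SOX8 (-1.41) and GLUL (-0.35) fell, with SOX2 at 0 in every library and the glial protein gene RLBP1 at 0.044 ± 0.076 and 0 CPM. The 15 ganglion cell markers summed to 515 to 547 and 334 to 341 CPM, with 2 higher and 5 lower of 10 tested. THY1 (0.73) and ATOH7 (0.58) were higher, the lower genes were led by the neurofilament genes NEFM (-1.21) and NEFL (-1.02), and ISL1 was at 0. NEFL (258 ± 12.1 and 128 ± 0.82 CPM) and NEFM (142 ± 5.1 and 61.1 ± 2.1 CPM) made up most of the ganglion cell sums. The drop of these sums therefore mostly reflects NEFL and NEFM. The 11 amacrine cell markers summed to 123 to 125 and 109 to 113 CPM, with 1 higher and 3 lower of 7 tested (2 and 1 with library sizes alone, and 0 higher under a minimum of 1 CPM in 3 libraries). The gene called higher, LHX9 (0.400 ± 0.17 and 1.34 ± 0.57 CPM), reached the count minimum in the MYCN shRNA libraries alone. Those called lower included CHAT (-0.49) and SLC6A9 (-0.25, not called with library sizes alone), and TFAP2C and SLC32A1 were at 0. The part of any of these cells in the changes of the factors was not tested.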

How the data were processed

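Poly(A)-selected RNA of 6 Y79 cultures was extracted with TRIzol, per the labels' protocols. The authors deposited estimated counts per gene symbol, not scaled between libraries, and 12.5% to 12.8% of the values per library are not whole. GRCh38 is the build named per the submitters' processing notes. Aligner, counter, annotation and strand setting were not given in the sources used here. Of 17035 rows, 22 without values were left out. Groups and replicate numbers came from titles. No replicates were identical (chi-square per degree of freedom 1.73 to 4.23).

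Counts were rounded. Genes passing filterByExpr (minimum count 10) were tested by quasi-likelihood in edgeR 4.0.16 (R 4.3.3, TMM scaling, robust fit), with Benjamini-Hochberg adjustment over all tested genes at 0.05, and SEs came from the F statistic. Scripts were tested on simulated data. Alternatives used DESeq2 1.42.0, limma 3.58.1 (voom), other scalings and filters, a replicate block and each library left out. Counting intervals are exact and cover counting error only. Positions and exon lengths came from GENCODE 29 and promoters from RefSeq. Python 3.11.15, numpy 2.4.6, pandas 2.3.3, scipy 1.17.1 and matplotlib 3.10.9 were used.

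The 10 factors and all lists were chosen with earlier results of these data known. The rule names the 10 factors, MYCN, the 2 called genes with the smallest p per direction of each list, and 3 genes nearest in pattern to each of CRX, THRB and NRL. Other genes in the text were chosen after their values were seen. The values of a few single genes of the lists are not reported here.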

Additional observations from a re-analysis of the deposited data

How the results depend on the processing

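Across 14 alternatives (other scalings, tools, filters, a replicate block and each library left out), 7 factors were called higher and 2 lower in every one, and each of the 9 kept its direction and call, with log2 fold changes from 0.32 to 0.54 for CRX, 1.62 to 2.20 for ONECUT1 and -0.80 to -0.56 for RORB. SALL3 was never called (adjusted p 0.524 to 0.983): its log2 fold change was -0.012 by limma-voom and -0.14 to 0.26 with 1 library left out, and it was not tested under a minimum of 1 CPM in 3 libraries. With library sizes only, the medians of the shared, cone and rod factors were 0.54, 1.94 and 1.27. The 1 CPM minimum, which removes SALL3, gave 1.96 for the cone factors, and moving RORB gave -0.15 for the shared factors. With 1 library left out these medians were 0.32 to 0.39, 1.56 to 1.92 and 0.99 to 1.17. Among genes that are no members, checked after the data were seen, AIPL1 (-0.11) was 0.073 with library sizes only, and THRA (-0.02) was 0.015 with upper quartile scaling, 0.16 with library sizes only and -0.12 to 0.089 with 1 library left out. Same-numbered libraries correlated at 0.12, 0.10 and 0.026 in their deviations from group means, and libraries of unlike number at -0.14 to 0.040. Control replicates 1 and 2 correlated best with their own number, but control replicate 3 with MYCN shRNA replicate 2 (0.040). These weak correlations do not settle whether the numbers mark pairs. With the replicate block 4967 genes were higher and 4939 lower, against 4865 and 4857 without it, and the factors stayed at 7 and 2. Depth limits ONECUT1 and SALL3, with 18 and 36 control counts in all.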

Other observations

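The next tested gene on each side of the 10 factors on the chromosome (GENCODE 29 order, 20 genes in all) was higher in 9 cases, lower in 5 and not called in 6. Over all tested genes 38.0% were higher and 37.9% lower, and the neighbour counts were given no test. Some neighbours differed from the factor beside them. PCK2, whose span overlaps that of NRL without shared exon bases, fell by 1.11 ± 0.045 on the log2 scale while NRL rose. Next to NR2E3, THSD4 (2.72) and MYO9A (0.45) were both higher.

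Of 11019 other genes whose higher group reached 5 CPM, the 3 nearest to THRB by Euclidean distance of centred log2(CPM + 0.5) over the 6 libraries were ARNTL2 (0.137), a clock gene, FRMD6 (0.159) and GUCA1B (0.209), the guanylate cyclase activator of photoreceptors. Nearest to NRL were TRIOBP (0.0963), PIGA (0.102) and SDC2 (0.104), and nearest to CRX were KCNC1 (0.0395), CDC5L (0.0396) and GSS (0.0523). With 2 groups this distance mostly ranks genes by a like fold change.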
